A study of Mus musculus with 15 samples.

Results

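CD4 T cells that had been activated once, rested, and restimulated for 18 h were compared with CD4 T cells at 65 h of their first stimulation, on microRNA arrays. The comparison rests on 4 of the 15 arrays of the series, 2 for restimulated cells and 2 for 65 h cells, chosen by their labels. All cells came from the spleen and lymph nodes of C57/B6 mice aged 6-8 weeks, isolated with magnetic beads coated for CD4. The 65 h cells had been stimulated for that time with antibodies against CD3 and CD28 bound to the plate. The restimulated cells were day 7 resting cells put back on such plates for 18 hours, and the label of the day 7 cells gives 65 hours of first stimulation followed by rest in medium with IL-2. Naive cells (2 arrays), cells at 6, 12, 24 and 42 h (2 arrays each) and day 7 rested cells (1 array) served as reference levels.

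A naive CD4 T cell starts to divide and becomes an effector cell when its antigen receptor, which signals through CD3, is engaged together with the costimulatory receptor CD28. IL-2 is a growth factor that keeps activated T cells alive after stimulation ends, and such previously activated cells respond to a new stimulus faster than naive cells do. MicroRNAs are short RNAs that lower the translation and stability of the messenger RNAs they pair with, and T cells are known to change their microRNA content on activation.

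The 2 compared groups differ in stimulation history, in time since the last stimulus began and in time in culture, which cannot be told apart here. In bulk RNA, fewer cells of a type and less RNA per cell cannot be told apart either. The labels call the second array of each group a replicate and do not say whether it came from other mice or cultures, so a p-value here reflects no more than the spread of these arrays, which may be technical. No table used here pairs the probes of this custom array with microRNA names. Probes are therefore given by their identifiers, no sequence is shown, and the labelled cell type was not checked against markers. Each array lay on 1 of 2 slides, and each slide held 1 restimulated and 1 65 h array. Slide 1 here means the slide that also held the day 7 array. The first 42 h array was left out, because its column in the deposited table matched its own scanner file at a Spearman correlation of only 0.459 (at least 0.999 on the other 14) and 51.3% of its spots were outliers.

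Restimulated and 65 h cells differed in both directions. Of 693 probes tested, 26 (3.75%) passed limma's test at a Benjamini-Hochberg adjusted p of 0.05, with 9 higher (1.3%) and 17 lower (2.45%) in restimulated cells. The 9 were higher by 1.03 to 1.59 on the log2 scale, with a median of 1.27. The 17 were lower by 0.65 to 2.97, with a median difference of -1.23. In linear terms these 26 differences ran from 1.57-fold to 7.84-fold, and 21 were at least 2-fold. An unadjusted p under 0.05 was reached by 142 probes, and the adjusted p of the 26 lay between 0.0240 and 0.0496.

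These calls lay close to the threshold, with 5 residual degrees of freedom behind the spread. With either array of the naive, 6 h, 24 h or 65 h pair left out, 0 probes were called higher and 0 to 2 lower by limma (99 to 134 at an unadjusted p under 0.05), and with either 12 h array left out 1 and 8 were. Without the restimulated array of slide 2 the counts were 57 higher and 19 lower, and without that of slide 1 they were 44 and 36. Those fits hold 1 restimulated array, assumed to vary like the other groups, and drop the pair of replicates that lay furthest apart (a median of 0.419 log2). A fit on the 4 compared arrays alone called 0 probes (50 unadjusted), a fit without the slide term called 0 higher and 7 lower (98 unadjusted), and array weights gave 0 calls (86 unadjusted). Of the calls, 34.6% were higher, against 22.2% on the background-subtracted scanner signal and 18.2% after normexp background correction with quantile normalization.

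A missed threshold does not show that levels are alike, so the 95% confidence intervals of the differences were counted. The interval lay within 1 log2 of zero, that is within a 2-fold change either way, for 375 of the 693 probes (54.1%). It lay within 2 log2 for 616 (88.9%). These counts include probes near background in both groups, whose differences the deposited values understate. Among the 472 probes detected on all 4 compared arrays, the share within 1 log2 was 42.2%. On the scanner values of the 693 probes it was 33.8% scaled over detected probes and 30.4% scaled over all probes. It was higher with normexp (69.0%) and with no filter (84.3% of 2191). The median standard error was 0.24 log2. Among the 26 called probes, 6 had an interval that excluded any change smaller than 1 log2.

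Both slides were then set side by side. Of the 693 tested probes, 380 (54.8%) differed in the same direction on both slides, 215 of them higher and 165 lower in restimulated cells. Differences beyond 1 log2 were seen for 117 probes on slide 1 and 115 on slide 2, but for only 14 in the same direction on both, of which 5 were higher and 9 lower. Across probes, which are not independent replicates, the differences on the slides correlated at r = 0.23. All 26 called probes had the same sign on both slides and groups that did not overlap, while the groups did not overlap for 241 of the 693 tested probes. A call in a fit with 2 arrays per group nearly requires both. The 9 higher probes were each further apart on slide 1, with medians of 1.69 there and 1.04 on slide 2. Of the 17 lower probes, 11 were further apart on slide 2, where their median was -1.21 against -1.03 on slide 1.

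**Figure D1:**
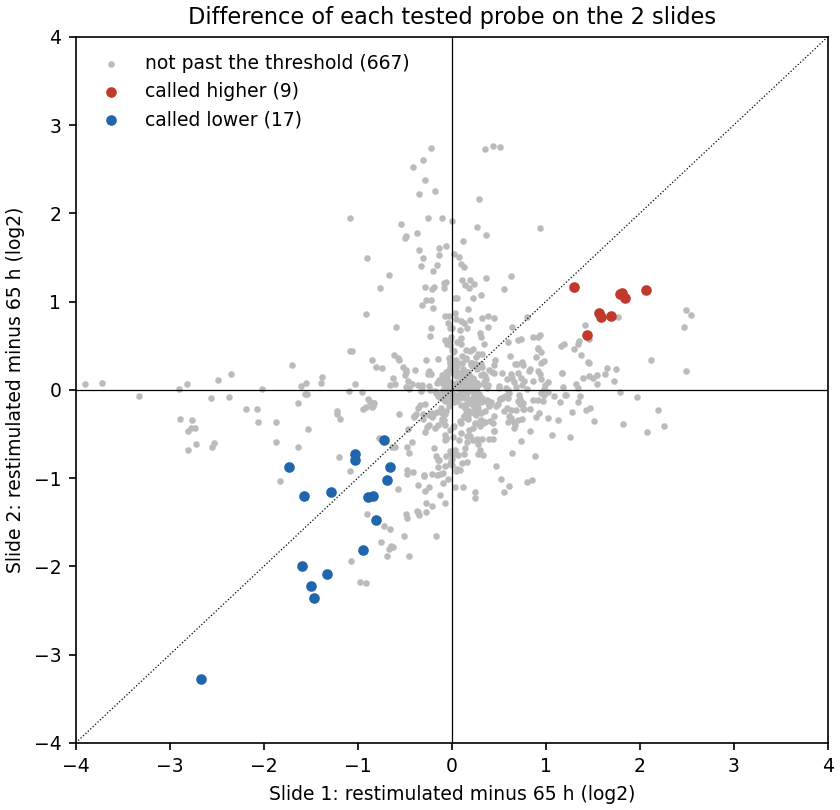
Difference between restimulated and 65 h cells (log2 of the deposited values) for each of the 693 tested probes, on slide 1 (horizontal axis) and slide 2 (vertical axis), with the probes called higher in red and called lower in blue. The 26 called probes lie in the quadrants where both slides have the same sign, all 9 red points lie below the dotted line of equal difference, and many grey points lie along one axis, far from zero on 1 slide only.

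Probe UCSF033_000493 had the largest difference among the higher probes. It stood at 5.41 on slide 1 and 6.14 on slide 2 at 65 h, and at 7.48 and 7.26 in restimulated cells. In naive cells it read 7.43 and 7.76, so the restimulated arrays were near the naive level and the 65 h array was the lowest of its slide on both slides. The difference was 1.59 (SE 0.23, 95% interval 1.05 to 2.14, limma adjusted p = 0.0254). After 6 h of first stimulation it stood at 7.02 and 7.56, after 12 h at 6.82 and 7.30, after 24 h at 6.52 and 6.59, and on the 42 h array at 5.74. On the day 7 array it stood at 7.77, above both restimulated arrays. Day 7 exceeded 65 h by 2.16 (SE 0.29, limma adjusted p = 0.0167).

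Probe UCSF033_000812 was also higher in restimulated cells, but from a different history. At 65 h it read 7.40 on slide 1 and 6.91 on slide 2, and in restimulated cells 9.21 and 8.01. The difference was 1.45 (SE 0.27, 95% interval 0.83 to 2.07, limma adjusted p = 0.0360). Naive cells were at 5.97 and 5.73, and cells at 6, 12 and 24 h lay between 5.31 and 5.68 on both slides. The single 42 h array was at 6.27, and the levels at 65 h, in restimulated cells and on day 7 were all above those of the earlier groups. Day 7 cells had the highest value of the 14 arrays, 9.33, and exceeded 65 h by 1.97 (limma adjusted p = 0.0247).

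Probe UCSF033_000781 showed the largest difference of all 26. It read 10.98 and 10.28 at 65 h and 8.31 and 7.01 in restimulated cells, on slides 1 and 2. It was lower by 2.97 (SE 0.45, 95% interval -4.03 to -1.91, limma adjusted p = 0.0254), which is 7.84-fold. This probe had its highest level in naive cells, at 15.84 on both slides, and was still at 15.63 and 15.61 at 6 h. By 12 h it read 14.45 and 15.34. By 24 h it read 14.75 and 14.21, and the 42 h array stood at 12.78. The day 7 array, at 10.78, was close to 65 h, and the difference of day 7 from 65 h was 0.01 (limma adjusted p = 0.991). The restimulated cells were below day 7 by 2.98 (SE 0.57), with a limma adjusted p of 0.0825 that missed the threshold.

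Probe UCSF033_001189 was lower in restimulated cells after standing above its naive level late in the first stimulation. It read 6.66 and 6.62 in naive cells, 7.91 and 8.07 at 24 h, 8.82 at 42 h, and 8.68 and 9.86 at 65 h. In restimulated cells it read 7.22 and 7.51, below both 65 h arrays and above both naive arrays. The difference was -1.91 (SE 0.30, 95% interval -2.61 to -1.21, limma adjusted p = 0.0254). Day 7, at 7.86, lay between 65 h and restimulated cells, and the step from 65 h to day 7 was -1.17 (limma adjusted p = 0.137). At 6 h it was at 6.32 and 6.73, and at 12 h at 6.33 and 7.26, so it stood clear of naive on both slides only from 24 h.

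All 4 named probes were detected above background on all 14 arrays. With any one array of the naive, 6 h, 24 h or 65 h pairs left out, none of the 4 passed the threshold, with limma adjusted p between 0.0521 and 0.125. UCSF033_000812 also missed it without either 12 h array (limma adjusted p = 0.0611). On the background-subtracted scanner signal, which was scaled separately, the same 4 differences were 1.96, 1.41, -2.94 and -1.79, in the order given above.

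**Figure D2:**
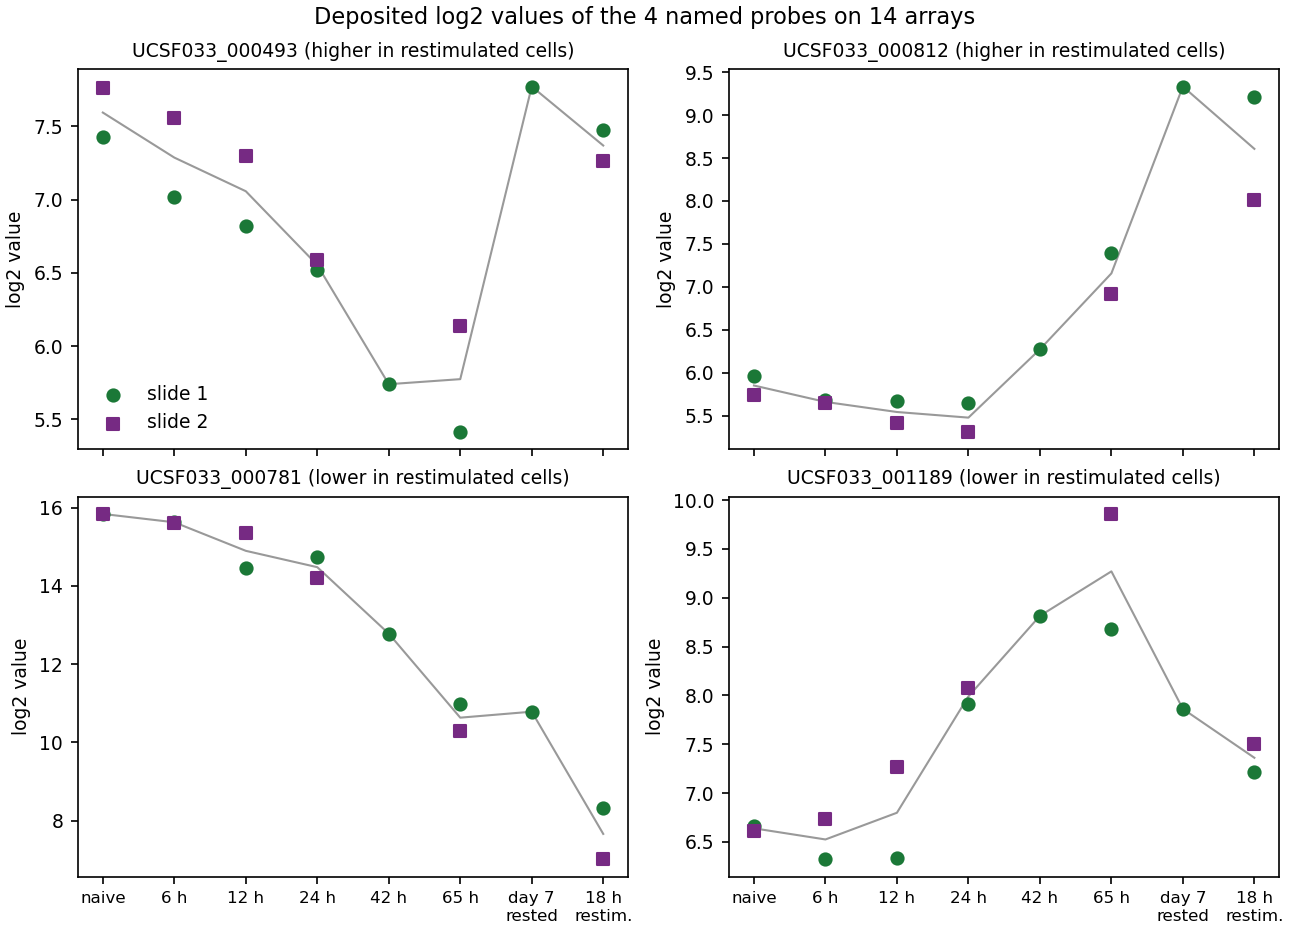
Deposited log2 value (vertical axis) of the 4 named probes in every group (horizontal axis), with green circles for slide 1, purple squares for slide 2 and a grey line through the group means; groups at 42 h and day 7 have 1 array. UCSF033_000493 has the lowest value of each slide at 65 h, with the grey line slightly lower at 42 h, and reads 7.48 and 7.26 in restimulated cells. UCSF033_000812 is highest on day 7 at 9.33. UCSF033_000781 reads 10.78 on day 7 and 8.31 and 7.01 in restimulated cells, and UCSF033_001189 has its highest value, 9.86, at 65 h.

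The called probes were next placed against naive cells, which gives their direction in the first stimulation. Among the 17 lower probes, 9 had both 65 h arrays above both naive arrays and 7 had both below; over all 693 tested probes these counts were 233 and 251. Of the 9 that stood above naive at 65 h, 5 were still above naive in restimulated cells, 2 overlapped the naive arrays and 2 were below them. The 7 that had been below naive at 65 h were below naive in restimulated cells too, and further down, which follows from their selection as lower. Among the 9 higher probes, 7 were above naive at 65 h and therefore, by their selection as higher, also in restimulated cells. The other two had been below naive at 65 h, and 1 of them was still below in restimulated cells. Over all tested probes, 190 of the 233 above naive at 65 h were above it in restimulated cells too (81.5%), and 193 of the 251 below were below it in both (76.9%). These shares cannot be set against the 7 lower and 7 higher probes whose outcome the selection fixed.

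The day 7 array shows where along the way each called probe stood, on slide 1 only. The probes were selected on the same 65 h and restimulated arrays, which favours a day 7 value on the restimulated side of 65 h, so the values are a description. Over the 9 higher probes, day 7 cells lay above 65 h by a median of 1.89, and restimulated cells differed from day 7 by a median of -0.13. In 6 of the 9 the day 7 value was beyond the restimulated value, in 2 it lay between, and in 1 it was not above 65 h. Those 6 were UCSF033_000493 and the neighbouring numbers UCSF033_000810, UCSF033_000811, UCSF033_000812, UCSF033_000814 and UCSF033_000815, which are not independent of each other. Over the 17 lower probes the median step from 65 h to day 7 was -0.76 and the median step from day 7 to restimulated cells was -0.48. The day 7 value lay between in 13 of the 17 and below the restimulated value in 4. Over all tested probes the medians of these steps were 0.08 and 0.01.

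In the fit over 14 arrays, 31 probes (4.47%) were higher and 10 (1.44%) lower on day 7 than at 65 h. They included 7 of the 9 higher probes and 5 of the 17 lower ones, but both comparisons use the same 65 h arrays. For restimulated against day 7 cells limma called 0 of 693 probes (0%), with 72 at an unadjusted p under 0.05. That contrast has 1 day 7 array, assumed to vary like the other groups.

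**Figure D3:**
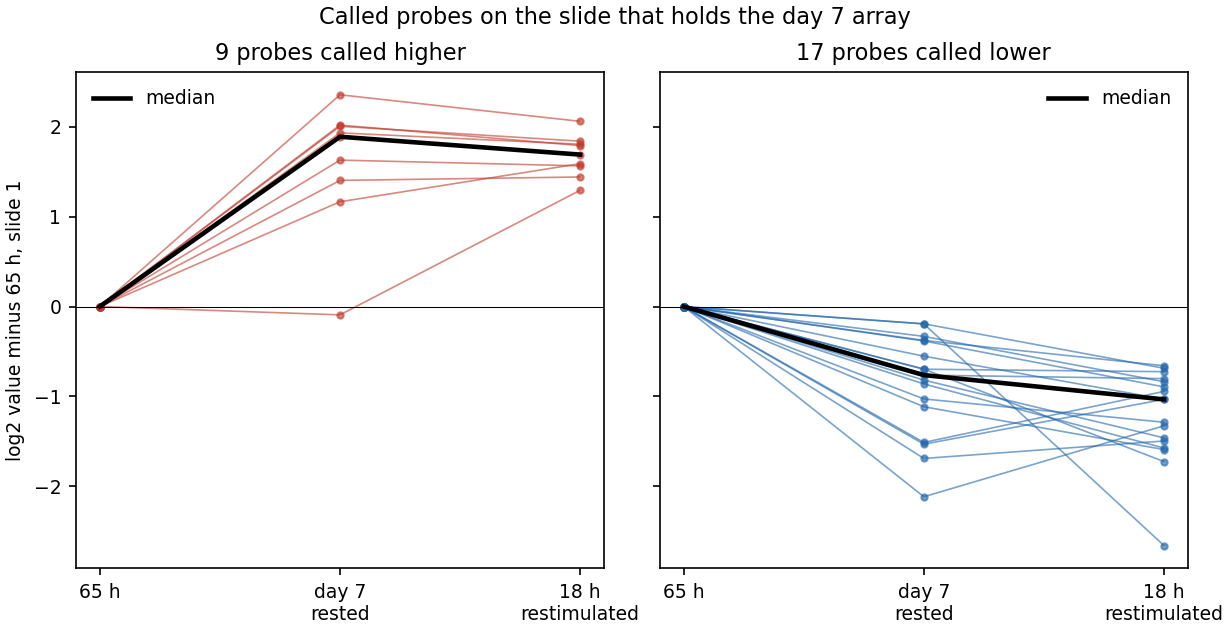
Level on slide 1 relative to the 65 h array (log2, vertical axis) at 65 h, on day 7 of rest and after 18 h of restimulation, for the 9 probes called higher (left) and the 17 called lower (right), with 1 thin line per probe and the median in black. The higher probes reach a median of 1.89 on day 7 and stay near it, with 1 exception that is not above 65 h on day 7, while the lower probes step down to -0.76 and then to -1.03.

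Since calls draw on both slides, probes were also chosen on one slide alone and read on the other. Choice and reading thus shared no array, although the filter for testing used detection on both slides. Only tested probes detected on the brighter group's array of the choosing slide could be chosen. The shares over all tested probes given below do not have that requirement. The 25 probes lowest in restimulated cells on slide 2 had a median difference of -1.78 there and -0.72 on slide 1, and all 25 were lower on slide 1 as well, against 41.7% of all tested probes. Most of these 25 had numbers between UCSF033_000419 and UCSF033_000450 or formed neighbouring pairs. Neighbours may share a target, so the set holds fewer than 25 independent readings, and the other sets hold neighbours too. In the reverse direction, the 25 lowest on slide 1 went from a median of -2.66 to -0.33, with 18 of 25 lower on slide 2 (50.9% over all tested). The 25 highest on slide 1 went from 1.81 to 0.25, with 19 of 25 higher on slide 2 (48.8% over all). The 25 highest on slide 2 did not carry over, with a median of 1.95 there and -0.18 on slide 1, where 9 of 25 were higher (58.0% over all).

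The set lowest on slide 2 held 2 kinds of course on slide 1. At 65 h 21 of its 25 probes stood above the naive array, and all 21 were nearer to naive both on day 7 and in restimulated cells. Over all tested probes 335 of 693 stood above naive at 65 h, of which 185 were nearer on day 7 and 160 in restimulated cells. The other 4 probes of the set stood below naive at 65 h, down to -6.19, and were further below it in restimulated cells. They were 2 neighbouring pairs, UCSF033_000781 with UCSF033_000782 and UCSF033_001297 with UCSF033_001298. Since all 25 were lower in restimulated cells on slide 1, these counts for restimulated cells largely follow from that reading and are no separate result. Relative to the naive array the median of the whole set was -0.04 after 6 h, 0.09 after 12 h, 1.23 after 24 h and 1.68 after 42 h. It was 1.34 at 65 h, 0.33 on day 7 and 0.58 in restimulated cells. Of the 25, 7 were among the called probes, against 3.75% of all tested probes, but the calls also use the slide that chose the set.

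**Figure D4:**
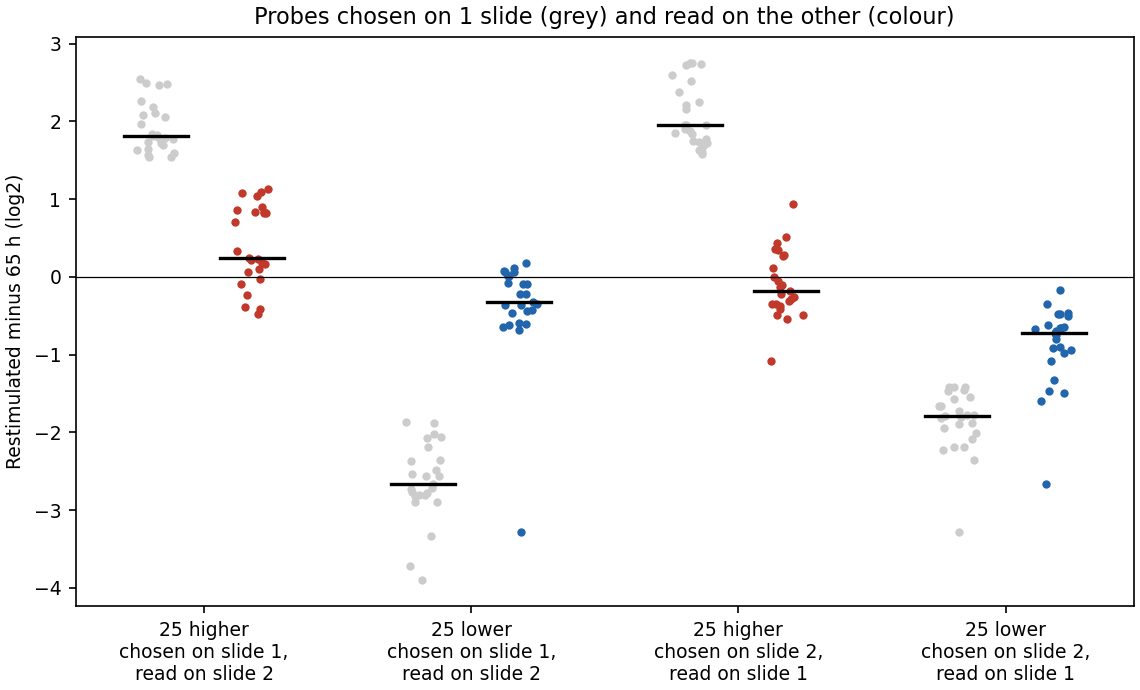
Difference between restimulated and 65 h cells (log2, vertical axis) for 4 sets of 25 probes chosen as most extreme on 1 slide (grey) and read on the other (red for sets chosen as higher, blue for sets chosen as lower), with bars at the medians. The set chosen as lowest on slide 2 lies below zero throughout on slide 1 (median -0.72), and the set chosen as highest on slide 2 straddles zero there (median -0.18).

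Neighbouring probe numbers on this array often gave similar differences: over 393 pairs of consecutive tested numbers the differences correlated at r = 0.60 across pairs. Members of such groups may share a target and are not independent. The 9 higher probes fell into 4 runs of numbers at most 5 apart, of up to 5 probes each, and the 17 lower probes into 13 runs of up to 3.

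Probes UCSF033_000357 and UCSF033_000358 were lower in restimulated cells on both slides, with median differences of -1.12 on slide 1 and -2.14 on slide 2. Probe UCSF033_000357 was called at -1.71 (limma adjusted p = 0.0254) and probe UCSF033_000358, at -1.55, narrowly missed (limma adjusted p = 0.0535). Probe UCSF033_000358 read 7.83 and 9.11 at 65 h, 5.94 on day 7, and 6.92 on both restimulated arrays. Those arrays were below both 65 h arrays, and day 7 was lower still.

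Probes UCSF033_000421 to UCSF033_000427 had a median difference of -0.92, and 6 of the 7 were lower on both slides. The size differed between slides, with medians of -0.17 on slide 1 and -1.66 on slide 2. Only probe UCSF033_000425 was called, at -1.86 (limma adjusted p = 0.0254).

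In the group from UCSF033_000781 to UCSF033_000784, probe UCSF033_000782 was lower by 1.58 (limma adjusted p = 0.0524), reading 7.28 and 7.46 at 65 h, 8.33 on day 7, and 6.31 and 5.28 in restimulated cells, and thus came near the threshold alongside probe UCSF033_000781. Probes UCSF033_000783 and UCSF033_000784 were close to background, which leaves little room for a lower level. The first was not detected on 1 restimulated array and the second was detected on only 1 of the 4 arrays. Probe UCSF033_000783 was higher in restimulated cells on both slides, at 5.28 and 5.71 against 5.05 and 5.25 at 65 h. Probe UCSF033_000784 read 4.64 and 4.72 at 65 h and 4.75 and 4.65 in restimulated cells. The median difference of the whole group was -0.78.

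Probes UCSF033_000542 and UCSF033_000543 were higher in restimulated cells on both slides but by very different amounts, 0.48 on slide 1 and 2.75 on slide 2, and were not called (limma adjusted p = 0.141). Probes UCSF033_000770 and UCSF033_000772 were higher by a median of 0.66, at 0.27 and 1.05 on slides 1 and 2. Both were not detected at 65 h on slide 2. On the scanner scale their slide 1 median turned to -0.06, while that of slide 2, read against the undetected array, was 2.42. Without the 65 h array of slide 2 the median over slides was 0.35, without that of slide 1 it was 0.97, and with normexp 0.32. With the scanner values it was 1.18 scaled over detected probes and 1.16 scaled over all probes. Probe UCSF033_000772 read 5.23 and 4.65 at 65 h, 7.29 on day 7, and 5.54 and 5.72 in restimulated cells, so the day 7 array was the highest by a wide margin.

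Probes UCSF033_001297 and UCSF033_001298 were lower by a median of 1.40, at -0.88 and -1.91, with standard errors of 0.66 and 0.57 and limma adjusted p of 0.25 and 0.26. Their median was -2.87 and -2.49 on the 2 scalings of the scanner values, -0.36 without the 65 h array of slide 2 and -2.43 without that of slide 1. Neither was detected on all 4 compared arrays. The groups UCSF033_000436, UCSF033_000442 and UCSF033_000456, UCSF033_000796 to UCSF033_000798, and UCSF033_001063 to UCSF033_001066 had medians of -0.30, -0.22 and -0.24, and none of their tested probes was called. In all 3 the medians on the slides had opposite signs, 0.56, -0.36 and 0.52 on slide 1 against -1.15, 0.01 and -1.01 on slide 2.

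The 21 probes from UCSF033_000201 to UCSF033_000221 are on the array but not in the deposited value table, so they were read from the scanner signal, scaled to each array's 75th percentile. Their median log2 level was -2.03 and -1.69 in naive cells, -5.61 and -4.87 at 65 h, -4.04 on day 7, and -4.51 and -4.32 in restimulated cells, on slides 1 and 2. Restimulated cells were above 65 h by a median of 0.63, with a range of -0.10 to 1.48 that includes undetected values at the floor. The 13 probes detected on all 4 arrays had a median of 0.63 and a range of 0.47 to 0.81. In the scanner fit, where 4.08% of 882 probes were called, 0 of the 21 were called by limma, the smallest adjusted p being 0.0556.

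**Figure D5:**
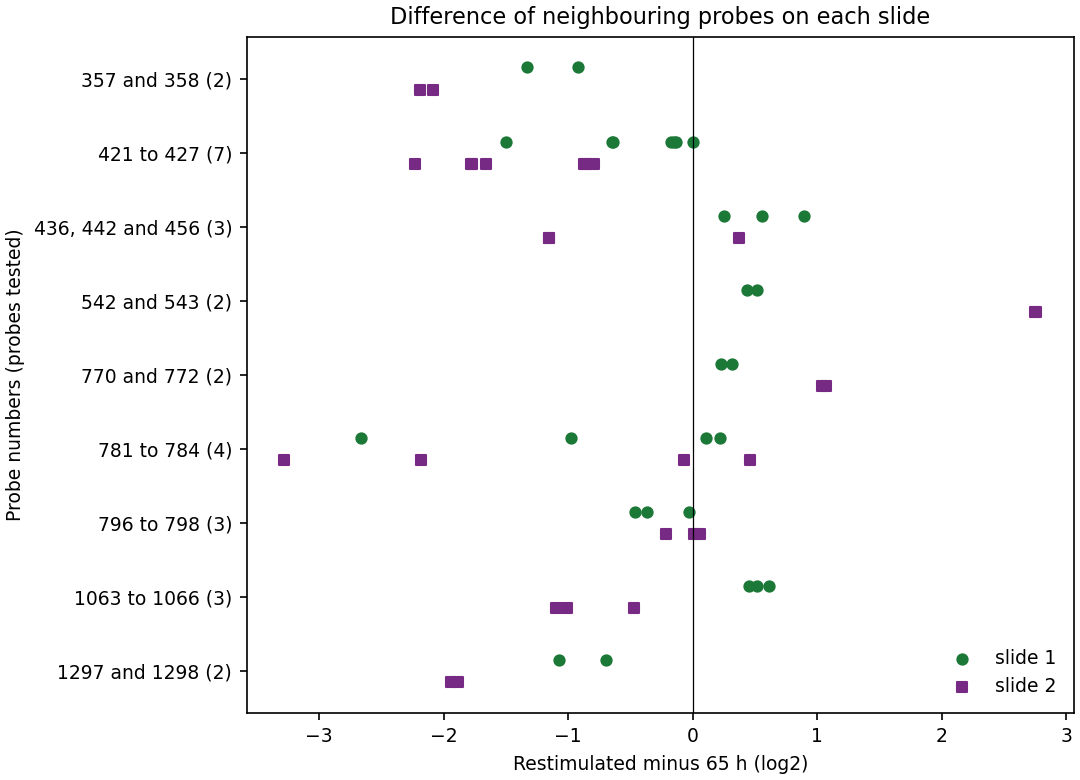
Difference between restimulated and 65 h cells (log2, horizontal axis) for each tested probe of 9 groups of neighbouring probe numbers (vertical axis, by the last digits of their identifiers, with the number tested), in green circles for slide 1 and purple squares for slide 2; symbols of nearly equal value overlap. Probes UCSF033_000357 and UCSF033_000358 lie below zero on both slides, probes UCSF033_000542 and UCSF033_000543 lie near 0.48 on slide 1 and 2.75 on slide 2, and probes UCSF033_001063 to UCSF033_001066 lie on opposite sides of zero.

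Over the 693 tested probes, restimulated and 65 h cells lay near each other compared with their distance from naive cells. The filter let in probes detected only in naive or other groups, which favours a small distance between the compared groups. Across both slides that distance was 0.307 over all 693 probes and 0.404 over the 472 detected on all 4 compared arrays. The distance from naive cells was not taken over those 472. The median absolute difference between them was 0.311 log2 on slide 1 and 0.303 on slide 2, the sixth smallest among 28 pairs of groups on slide 1 and 15 on slide 2. Restimulated cells lay 0.658 and 0.678 from naive cells. Their distance from day 7 cells was 0.308 on slide 1, and from 24 h cells 0.327 and 0.462. Across slides the 65 h arrays lay 0.300 apart and the restimulated arrays 0.419, but these distances include any difference between slides and cannot be set directly against those within a slide. Over all tested probes the median signed difference was 0.09 on slide 1 and -0.01 on slide 2.

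Few probes were detected on both arrays of one group and on neither of the other. Among the probes with deposited values, 472 were detected on both arrays of both groups and 1378 on neither array of either. For another 335 the arrays of at least 1 group disagreed, so this rule does not place them. Only 3 were detected on both 65 h arrays and neither restimulated array, and 3 the other way round; these 6 were singled out after their values were seen. Probes UCSF033_001282, UCSF033_001286 and UCSF033_001287 were at least 1.86-, 5.47- and 2.93-fold brighter at 65 h on the scanner scale. On the deposited values, which include background, their differences were smaller, at -0.43, -1.56 and -0.67 (limma adjusted p = 0.224, 0.380 and 0.141), and that of UCSF033_001286 was -2.77 on slide 1 against -0.34 on slide 2. Probes UCSF033_000468, UCSF033_000789 and UCSF033_001109 were at least 1.28-, 1.30- and 1.09-fold brighter in restimulated cells on the scanner scale, with deposited differences of 0.33, 0.46 and 0.37 (limma adjusted p = 0.425, 0.319 and 0.492). Each bound sets the mean scaled signal of the brighter group against the dimmer group's own signal or the faintest signal well above background, whichever was higher.

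The restimulated arrays differed from each other in brightness and in how many probes they detected. Of the 2191 probes with deposited values, the restimulated array of slide 1 detected 486 and that of slide 2 detected 760, while the 65 h arrays detected 643 and 613. For the 622 probes that all 4 arrays detected, the log2 signal before scaling had a median of 6.55 at 65 h and 6.42 in restimulated cells on slide 1, and 7.51 and 8.27 on slide 2. The difference of the group means was 0.32 (exact permutation test, two-sided, p = 1, where 2 arrays against 2 cannot go below 0.333). That test did not pair the arrays by slide. Within slides, the restimulated array was dimmer than the 65 h array on slide 1 and brighter on slide 2. The part of brightness and detection in the results that differ between slides was not tested.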

How the data were processed

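Total RNA (50 ng per the series design) from Trizol extracts was labelled with Cy3 for custom Agilent arrays read in one colour. The deposited table gives log2 values of 2191 of the 2500 probes on each array. The steps by which the authors computed them are not given in the sources used here, and their scale and centring stay unknown (column medians 4.38 to 4.41). Columns follow the rank of the spots' brightness without background subtraction, so they understate differences of dim probes. The deposited scanner files hold spot intensity from Feature Extraction, version 10.1.1.1 by the header lines and 10.6 per the submitters' processing notes.

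The test was limma's (version 3.58.1, lmFit and eBayes, R 4.3.3), run on the deposited log2 values, with group and slide as terms, 14 arrays in the fit and Benjamini-Hochberg adjustment over 693 probes. Detection on an array required that over 50% of a probe's spots be flagged well above background, and testing required detection on both arrays of a group having 2 in the fit. Control and outlier spots were left out of scanner values, which were divided by the 75th percentile over 571 probes detected on all arrays of the fit and floored at 0.5827% of it. Precision is limited by the small number of arrays. The procedure was also tested on simulated data with independent noise and no slide shift, which does not test the slide term, and the outcome is not reported here. Named probes were the 2 with the largest difference per direction among called probes, plus groups of neighbouring numbers. Comparisons, members and lists were chosen with earlier results of these data known. Alternatives changed the arrays, slide term, values, filter and variance model. Lists of microRNAs and cell markers were not tested, since no probe could be named.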

Additional observations from a re-analysis of the deposited data

Results flagged for a closer look

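The array carries 309 probes that the deposited value table does not hold. Of these, 154 (49.8%) were detected on both restimulated arrays, while 1 of 77 negative control spots was above background on each restimulated and each 65 h array. Of the 2191 probes with deposited values, the restimulated array of slide 1 detected 486, so no more than that were detected on both. Single control spots are not a like measure for probes with several spots, and 192 probes of the array have 1 spot only. The probes missing from the deposited table were flagged as signal outside the values compared above. In the scanner fit over 882 probes, 189 of them were tested, and limma called 0 higher and 2 lower in restimulated cells (1.06%, with 53 at an unadjusted p under 0.05), against 36 of all 882 (4.08%). Their median difference was 0.06, against 0 for the probes of the value table on the same scale.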

How the results depend on the processing

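The direction of the 4 named probes held in all 29 alternatives, with limma adjusted p up to 0.662, and their calls held in 17 (UCSF033_000493), 12 (UCSF033_000812), 18 (UCSF033_000781) and 16 (UCSF033_001189). The direction was largely fixed in advance, since these probes were chosen for the same sign on both slides. Every fit that kept the 4 compared arrays on the deposited values, without recentring, gave the same differences. Leaving out the remaining 42 h array or the day 7 array removed a whole group and returned the main fit, so those calls were fixed too. The counts moved more. Except where a reason follows, the cause was not tested. Against 9 higher and 17 lower probes and 375 intervals within 1 log2, the 4 arrays alone gave 0, 0 and 142, with fewer arrays behind the spread. All 15 arrays gave 15 higher. No slide term gave 0 and 7, an intensity trend 3 and 9, and array weights 0 and 0. Scanner values scaled over detected probes gave 28 lower and 234 intervals, over all probes 2, 9 and 211, and 28 lower with probes outside the value table added. Normexp with quantile normalization gave 4 higher. No filter gave 0, 5 and 1847 (84.3% of 2191), and probes detected on all 4 arrays gave 199 intervals (42.2% of 472). Leaving out single arrays gave 0 to 57 higher, 0 to 36 lower and 298 to 383 intervals. The main share of higher probes among calls, 34.6%, was 18.2% on scanner values over all probes and with normexp and 22.2% on the other scanner values. The median absolute difference, 0.307, was 0.486, 0.494 and 0.452 on the 3 scanner scalings, 0.204 with normexp, 0.0786 with no filter, and 0.404 and 0.365 with stricter filters. The medians of probes UCSF033_000436, UCSF033_000442 and UCSF033_000456, UCSF033_000796 to UCSF033_000798 and UCSF033_001063 to UCSF033_001066 changed sign in 2, 1 and 2 alternatives. Dim probes are limited by background, which the deposited values include.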
